A study of Mus musculus with 3 samples.

Results

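Heat shock proteins and DnaJ co-chaperones form the main protein-folding machinery of the cell. Their 72 genes, among 24411 tabulated, were examined in RNA sequencing libraries of mouse microglia. The genes were chosen by symbol alone: Hspa, Hspb, Hspd, Hspe, Hsph or Dnaja, Dnajb, Dnajc followed by a digit, or a symbol beginning with Hsp90. They were divided into 8 families, comprising 11 HSP70, 3 HSP110, 3 HSP90, 2 mitochondrial HSP60/HSP10, 8 small heat shock, 4 DNAJA, 13 DNAJB and 28 DNAJC genes. The symbol rule also takes in genes whose proteins carry a family name without being typical chaperones, such as Hspb11, a part of the transport machinery of cilia.

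The 3 libraries, replicates 1 to 3, formed 1 group: microglia, the macrophages resident in brain tissue, of C57BL/6J mice with the genotype Mir137loxP/loxP;Tmem119-CreERT2, labelled cKO and treated with a Pu.1 inhibitor. Tamoxifen, given on 7 days in a row when the mice were 7 to 8 weeks old, activates the Cre recombinase expressed from Tmem119 to delete the microRNA gene Mir137, while the age on the labels was 6 to 8 weeks. The deletion is thus directed at cells in which the Tmem119 allele is active. Pu.1 is the macrophage transcription factor encoded by Spi1. The design names 4 mice without assigning them to libraries, and the sources used here do not state the inhibitor's name, dose or route. No library of mice with intact Mir137 or without the inhibitor was analysed here, so the values are levels in this 1 combined condition. The labels do not tie replicates to animals. P-values below therefore reflect only how these 3 libraries differ, and such differences may be technical.

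HSP70 proteins bind exposed hydrophobic stretches of unfolded proteins in a cycle driven by ATP. DnaJ proteins, also called HSP40 or J-proteins, bring clients to HSP70 and stimulate its ATPase, and HSP110 proteins release ADP so that the cycle can start again. HSP90 completes the maturation of kinases and hormone receptors, HSP60 with its lid HSP10 folds proteins inside mitochondria, and small heat shock proteins hold unfolded proteins without using ATP. Some of the genes are induced by the heat shock factor HSF1 when proteins misfold in the cytosol, and others by the unfolded protein response (UPR) when they misfold in the endoplasmic reticulum (ER).

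The libraries held 17180404, 15710750 and 16356125 estimated counts in replicates 1, 2 and 3. The row of Mir137 itself, the target of the deletion, was at 0 throughout (replicates 1 to 3), but no library with an intact gene was analysed here and how these libraries capture microRNA transcripts was not given, so this does not check the deletion. All 10 microglial markers examined, among them Csf1r, Cx3cr1, P2ry12 and Tmem119, were detected, and their summed level was 13466 to 14099 FPKM (fragments per kilobase of transcript, scaled to library size) over the libraries. Markers of other cells were also present: all 8 neutrophil markers were detected, summing to 13677 to 15141 FPKM, of which S100a8 and S100a9 are the most abundant. All 8 endothelial markers summed to 2006 to 2193, the 8 mural markers to 301 to 332 and the 8 astrocyte markers to 342 to 389 FPKM. All 8 oligodendrocyte markers were detected as well, at 305 to 366 FPKM in sum. Of 8 neuronal markers 3 were detected, with Nefl at 0 in every library, and of 8 ciliated-cell markers 5 were. The part of these cells in the levels below was not tested. In such bulk samples fewer cells of a type and less RNA per cell cannot be told apart.

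Most of the 72 genes were expressed, and a handful of them carried most of the RNA. Detection required 1 FPKM or more in each library. By this rule 61 of 72 (84.7%) were detected, against 47.8% of all genes tabulated. The 72 genes together took 1.22 ± 0.0044% of all counts (SD, n = 3), with 1.22, 1.23 and 1.23% in replicates 1, 2 and 3. The 7 genes with the most counts, Hspa8, Hspa5, Hsp90b1, Hsp90ab1, Hspa1a, Hspa1b and Hsp90aa1, supplied 71.0 ± 0.23% of the counts of the 72 (SD, n = 3). These 7 were also the 7 highest per length and the 7 that stood among the 500 most abundant genes by mean FPKM. A mean of at least 50 FPKM was reached by 19 of the 72 genes, or 26.4%, against 6.93% of all genes.

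**Figure D1:**
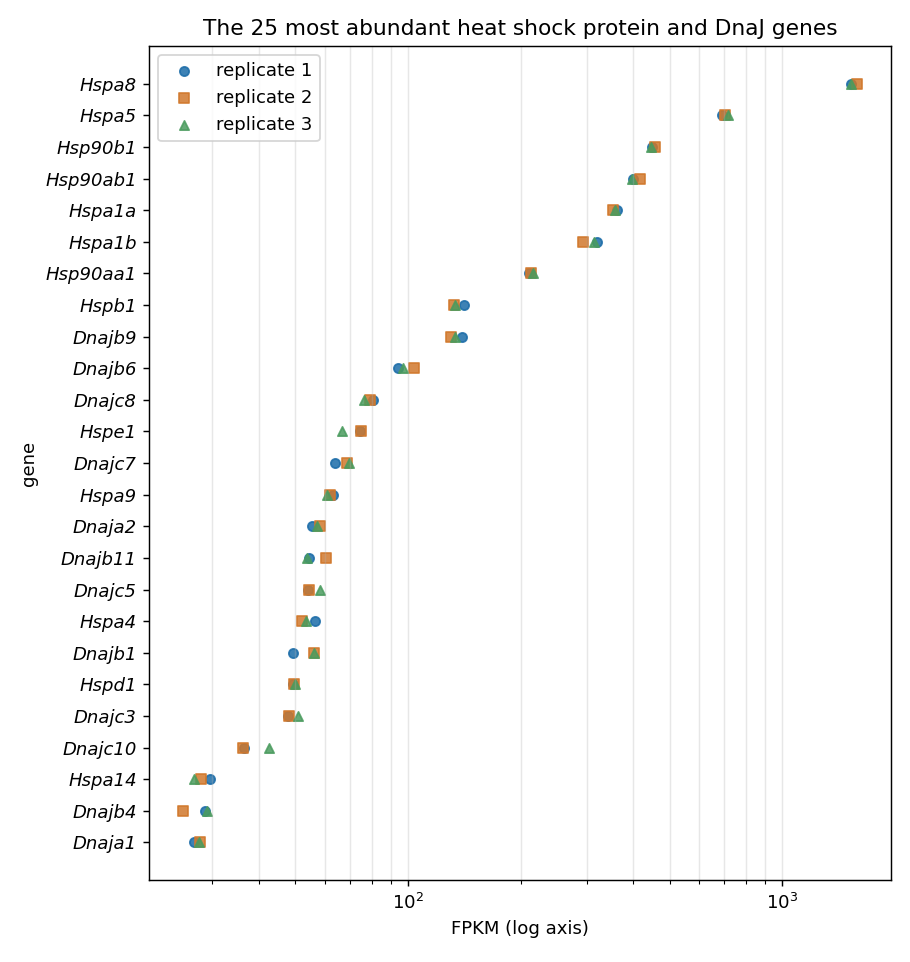
FPKM of the 25 most abundant heat shock protein and DnaJ genes on a log axis, 1 row per gene and 1 point per library (replicates 1 to 3). Hspa8 stands apart near 1542 FPKM, the 3 points of a gene lie close together, and the genes between Dnaja2 and Dnajc3 lie near 50 FPKM with ranges that overlap from neighbour to neighbour.

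The order at the top was the same in each library. Down to Hspb1 the FPKM range of every gene lay wholly above that of the next, and over the 25 highest genes 14 of 24 neighbouring pairs did not overlap. The 10 overlapping pairs included Hspb1 with Dnajb9, Hspe1 with Dnajc7, and the 6 pairs in a run from Dnaja2 through Dnajb11, Dnajc5, Hspa4, Dnajb1 and Hspd1 to Dnajc3. Overlap concerns neighbours only: Dnaja2, Dnajb11, Dnajc5 and Hspa4 lay wholly above Hspd1 and Dnajc3, and Dnajb1 was above Hspd1 in each library.

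The HSP70 family was the most abundant, with a summed level of 3046 ± 17.3 FPKM (SD, n = 3), or 54.5% of the FPKM of all 72 genes. Hspa8 (GRCm38 chromosome 9, 40800984 to 40810087) encodes Hsc70, the constitutive HSP70 of the cytosol, which also uncoats clathrin vesicles and delivers proteins to lysosomes. It stood at 1520.2, 1580.2 and 1526 FPKM in replicates 1, 2 and 3, a mean of 1542 ± 33.0 (SD, n = 3) and rank 35 among all genes. Hspa5 (chromosome 2, 34771970 to 34777547) encodes BiP, the HSP70 of the ER. Its values were 689, 703 and 717 FPKM, and its ratio to Hspa8 was 0.456 ± 0.012 (SD, n = 3). Hspa9, the HSP70 of mitochondria, which drives protein import there, was far lower at 63.0, 61.7 and 60.6 FPKM, a ratio to Hspa8 of 0.0401 ± 0.0013 (SD, n = 3).

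The stress-inducible HSP70 genes Hspa1a and Hspa1b were abundant in every library. Hspa1a (chromosome 17, 34969190 to 34972156) was at 362, 352 and 358 FPKM. Hspa1b was at 320.0, 293 and 315 FPKM, below Hspa1a in all 3 libraries without overlap. Each encodes the same kind of protein, HSP70, which in many cell types is scarce until heat or another stress. Their coding sequences, compared in the GENCODE M21 transcripts of GRCm38, differed by 8 mismatches and 3 gap bases and were 99.4% identical, so reads cannot always be placed in 1 or the other. Of the stretches of 100 bases in the Hspa1a transcript 47.1% also occurred in Hspa1b, and neither gene had whole estimated counts in the deposited table. The sum of the pair does not depend on that split: it was 682, 645 and 673 FPKM, a mean of 666 ± 19.0 (SD, n = 3), and 0.432 ± 0.021 times Hspa8. The ratio of Hspa1a to Hspa1b, 1.16 ± 0.038, does depend on it.

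The other HSP70 genes were low. Hspa14, whose protein works at the ribosome, was at 28.1 ± 1.45 FPKM, and Hspa13, an ER-associated member, at 25.1 ± 0.78 (SD, n = 3). Hspa12b, a divergent member known from endothelial cells, was at 10.4, 12.3 and 11.9 FPKM, in libraries where all 8 endothelial markers were detected, and their part in its level was not tested. Hspa2, best known from male germ cells, was at 4.69 ± 0.35 and Hspa12a at 1.29 ± 0.19 FPKM (SD, n = 3). Hspa1l, which lies next to Hspa1a, was at 2.16, 0.78 and 1.55 FPKM. Of its 100-base stretches 70.8% also occurred in the antisense gene Gm10501, which was not among the genes tabulated. No source used here says whether the libraries kept the strand, and without strand reads of Hspa1l could not be told from those of Gm10501. Dnajc14 and Ormdl2 overlap on opposite strands, and their estimated counts had fractions that complement each other in each library (1121.2 and 330.8 in replicate 1). Reads of that pair were thus shared across strands. Estimated counts of Hspa1l were not whole either. In each library they added up with those of Hspa1a and Hspa1b to a whole count, within rounding (79.22, 15642.3 and 13905.5 in replicate 1). Reads were thus shared among these 3 genes.

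HSP90 was the second family, with a sum over its 3 genes of 1068 ± 16.3 FPKM (SD, n = 3). Hsp90b1, the ER member also known as Grp94, on which Toll-like receptors and integrins depend for folding, was the highest at 449, 456 and 446 FPKM. Hsp90ab1, the constitutive cytosolic form, was at 398, 417 and 397 FPKM. The inducible cytosolic form Hsp90aa1 was at 210.3, 213 and 216 FPKM, so that Hsp90aa1 stood at 0.527 ± 0.016 times Hsp90ab1 (SD, n = 3). The 3 genes did not overlap in any library.

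The exchange factors of the HSP110 family were lower than Hspa8, Hspa1a and Hspa1b in every library. Hspa4, the constitutive member, was at 56.5, 52.0 and 53.4 FPKM. Hsph1, a heat-inducible member (chromosome 5, 149614287 to 149636376), was at 16.98, 13.6 and 15.98 FPKM, 0.287 ± 0.022 times Hspa4 and only 0.0233 ± 0.0019 times the sum of Hspa1a and Hspa1b (SD, n = 3). Hspa4l was the lowest of the family at 3.80 ± 0.56 FPKM (SD, n = 3).

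The mitochondrial chaperonin Hspd1 (HSP60) was at 49.3, 49.7 and 49.9 FPKM, the narrowest spread among the 25 highest genes. Its lid Hspe1 (HSP10) was at 74.2, 74.6 and 66.6 FPKM. The ratio of Hspd1 to Hspe1 was 0.693 ± 0.049 per length and 2.92 ± 0.20 in estimated counts (SD, n = 3), because the effective length of the Hspe1 transcript, 487 nt, is below the 2051 nt of Hspd1. Of the small heat shock genes, Hspb1, an inducible chaperone that also binds actin, was at 141, 133 and 133 FPKM and the next, Hspb8, a partner of Bag3 in selective autophagy, at 20.4, 21.5 and 16.8. The remaining detected small heat shock genes, Hspb3, Hspb11, Hspb6 and Hspb2, had means of 4.02 to 9.41 FPKM, and Hspb9 and Hspb7 were not detected, at means of 0.77 and 0.20.

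**Figure D2:**
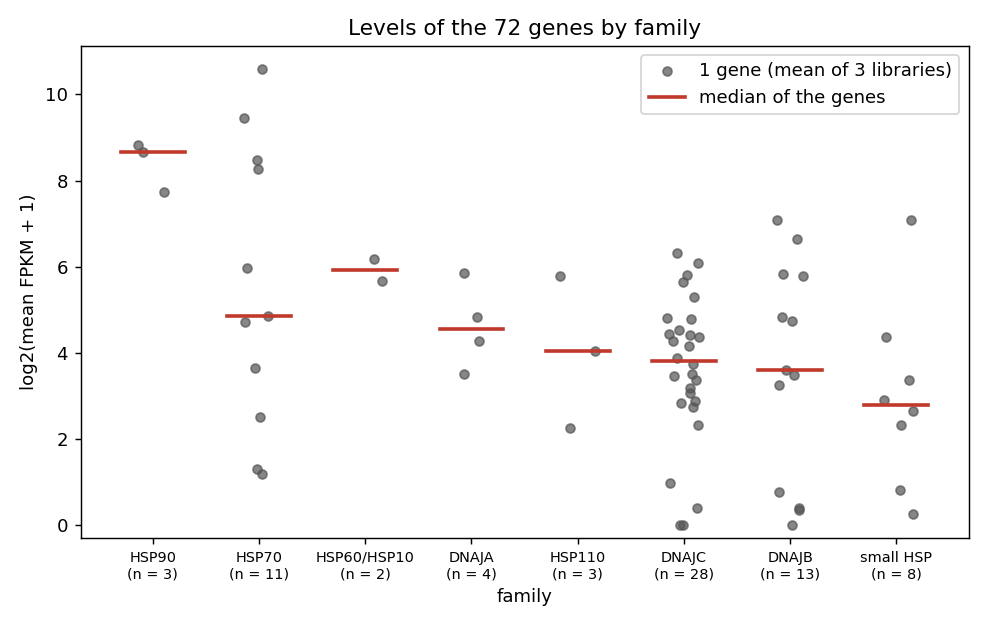
Level of each of the 72 genes, as log2 of the mean FPKM over 3 libraries plus 1, by family, with 1 point per gene and a line at the median of the family. HSP90 genes are all high, HSP70 spans the widest range from Hspa8 to Hspa12a, and the DNAJB, DNAJC and small heat shock families each include genes at or near 0.

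The 45 DnaJ genes outnumbered the 27 heat shock protein genes but had a summed level of 1095 ± 11.8 FPKM against 4490 ± 30.5 (SD, n = 3). The median over genes of log2(FPKM + 1) was 3.88 ± 0.066 for DnaJ genes and 4.71 ± 0.043 for heat shock protein genes (SD, n = 3), and it was 4.17 ± 0.055 over all 72 and 0.95 ± 0.019 over all genes tabulated. The last value includes the many genes not detected. Over detected genes alone the median was 4.48 ± 0.040 for 61 of the 72 and 3.82 ± 0.0031 for all genes (SD, n = 3). Of the 45, 37 were detected, and 2 were above 90 FPKM, Dnajb9 and Dnajb6.

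Among general cytosolic J-proteins, which pass a wide range of clients to HSP70, Dnaja2 was at 55.5, 58.2 and 57.1 FPKM and Dnaja1 at 26.8, 27.8 and 27.6. Dnaja1 was 0.481 ± 0.0031 times Dnaja2 per length and 0.990 ± 0.0016 times in counts (SD, n = 3), its effective length being 5269 nt against 2558 nt. Dnajb1, the heat-inducible partner of HSP70, was at 49.4, 55.9 and 56.0 FPKM, 0.0808 ± 0.0074 times the sum of Hspa1a and Hspa1b (SD, n = 3). Dnajb6, which keeps aggregation-prone proteins soluble, was at 93.9, 104 and 97.0 FPKM, and Dnajb4 at 28.7, 25.04 and 29.1. The lowest DNAJA gene was Dnaja4 at 9.36, 12.02 and 9.87 FPKM. Of its 100-base stretches 51.0% also lay in Wdr61 on the opposite strand, but the estimated counts of Dnaja4 and of Wdr61 were whole.

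Besides Hspa5, 9 J-proteins were assigned to the ER, in its lumen or its membrane, and all were detected, with 10.4 to 134 FPKM. The highest was Dnajb9 (ERdj4), which sends misfolded proteins to degradation and holds the stress sensor IRE1 in check, at 139, 130 and 133 FPKM. Dnajb11 (ERdj3), a soluble folding partner of BiP, was at 54.2, 60.4 and 53.7 FPKM. Dnajc3, an inhibitor of the kinase PERK, was at 47.9, 48.2 and 50.7, and Dnajc10, a disulfide reductase, at 36.5, 36.3 and 42.4 FPKM. The sum of the 9 was 0.513 ± 0.013 times Hspa5 (SD, n = 3). It includes the membrane proteins Dnajb12 and Dnajb14, and whether each of the 9 works with Hspa5 was not tested. The symbol rule leaves out other ER folding factors such as Sec63, at 21.2 FPKM, so this is not a ratio for all J-proteins of the ER.

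In mitochondria, 5 J-proteins were detected at 12.4 to 27.2 FPKM, including Dnajc19 and Dnajc15 of the import motor and Dnaja3. None was above Hspa9, but their sum was 1.59 ± 0.10 times Hspa9 per length (SD, n = 3). In estimated counts it was 0.664 ± 0.030 times Hspa9 (SD, n = 3), so the order depends on the division by length. Dnajc15 and Dnajc19 had effective lengths of only 367 and 512 nt. The symbol rule leaves out other mitochondrial quality control genes such as Hscb, at 11.5 FPKM, so the sum does not cover all J-proteins of mitochondria.

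J-proteins with dedicated tasks made up the rest. Dnajc8, a partner of the splicing machinery, was the highest DNAJC gene at 80.7, 79.1 and 76.2 FPKM. Dnajc7, which binds both HSP70 and HSP90, was at 63.9, 68.7 and 69.5 FPKM. Dnajc5, the cysteine string protein of secretory vesicles, was at 54.0, 54.2 and 58.0 FPKM. Dnajc9, a histone chaperone, was at 7.80, 10.01 and 6.43 FPKM.

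The 11 genes that were not detected included several known mainly from other tissues. Dnajb8, Dnajc22 and Dnajc5g had no count in any library, which for counting error alone allows levels of up to 3 counts. That is 0.175, 0.191 and 0.183 CPM, where CPM is the count relative to the library total, in replicates 1, 2 and 3. Dnajb3, Dnajb7, Dnajc5b, Hspb7 and Hspb9, known mainly from testis or muscle, had means of 0.20 to 0.77 FPKM. Dnajb13, of motile cilia and sperm tails, was at 0.71 ± 0.091 FPKM and Dnajc6, the neuronal auxilin, at 0.99 ± 0.13 (SD, n = 3). Hspa1l missed the rule through replicate 2 only, and without that library Hspa1l and Dnajc6 would be detected, giving 63 of 72. These genes outside the named rule were singled out after their values were seen.

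The genes that heat or ER stress is known to induce were set side by side. All 10 genes of the heat-induced set and all 7 of the UPR-induced set were detected, against 84.7% of the 72 and 47.8% of all genes. Their medians of log2(FPKM + 1) were 5.98 ± 0.050 and 5.83 ± 0.093 (SD, n = 3). That median was 4.17 for all 72 and 4.48 for the 61 that were detected. The heat-induced set spanned a wide range, from 357 FPKM for Hspa1a to 3.80 for Hspa4l. Within it Hspa1a, Hspa1b, Hsp90aa1 and Hspb1 were above 100 FPKM, Hspe1, Dnajb1 and Hspd1 between 49 and 72, and Dnaja1, Hsph1 and Hspa4l below 28. The UPR-induced set ran from Hspa5 at 703 to Hspa13 at 25.1 FPKM.

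Partner genes of the same pathways were also expressed. Of 6 heat shock factors and regulators 3 were detected. Hsf1 was at 12.6 ± 1.01 and Hsf2 at 9.62 ± 0.68 FPKM (SD, n = 3), and Hsbp1, whose protein binds HSF1, at 118 ± 12.5 FPKM, while Hsf4 and Hsf5 were among those not detected. All 14 exchange factors and adaptors of HSP70 were detected at a median level of 4.40 ± 0.018, with Bag1 at 69.9, St13 at 68.7 and Bag6 at 41.0 FPKM. All 21 HSP90 co-chaperones were detected at 5.07 ± 0.029, the highest being the immunophilin Fkbp5, which glucocorticoids induce, at 162 ± 0.040 FPKM (SD, n = 3). All 14 subunits of the chaperonin TRiC and prefoldin stood at 6.00 ± 0.088 and all 13 ER folding factors at 6.48 ± 0.079, with Calr at 402, Pdia3 at 396 and Ppib at 295 FPKM. The 8 genes of mitochondrial quality control were at 4.00 ± 0.067, with Yme1l1 at 39.4 and Trap1, the mitochondrial HSP90, at 24.9 FPKM.

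Immediate early genes, which tissue dissociation is known to induce in microglia along with heat shock genes, were also measured in these libraries. All 18 were detected at a median level of 8.73 ± 0.030 (SD, n = 3), with Fos at 2083 ± 31.9, Dusp1 at 1848 ± 16.1 and Zfp36 at 1741 ± 40.6 FPKM. Their part in the levels of the heat-induced genes was not tested.

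**Figure D3:**
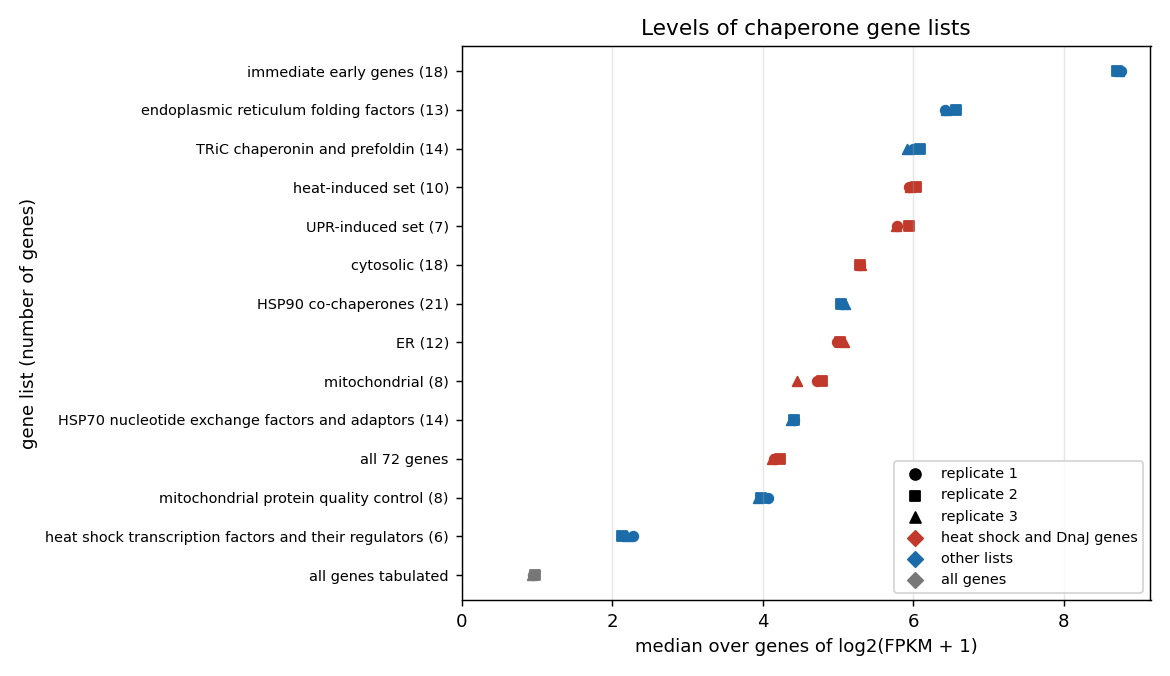
Median over genes of log2(FPKM + 1) in each of 3 libraries for the heat shock and DnaJ genes and their subsets, for 7 other gene lists and for all genes tabulated, with the number of genes in brackets and 1 symbol per library. The heat-induced and UPR-induced sets lie near 6, immediate early genes at 8.73 and heat shock factors with their regulators at 2.20.

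The promoters were searched for the elements through which these inductions are known to work. RefSeq sequences of GRCm38.p6 that span 250 bases before to 50 bases after a start site were at hand for 58 of the 72 genes. The heat shock element, sought as GAA, TTC and GAA with any 2 bases between each on either strand, was found in 4 of 58 genes (6.90%), against 0.662% of 27025 genes with a promoter in the table. These were Dnajb6, Hspe1, Hspd1 and Hsph1. The ER stress element, CCAAT and CCACG with any 9 bases between on either strand, was found in 3 of 58 (5.17%), Hspa5, Hsp90b1 and Dnajc3, against 0.137% of all. The motif GAGGAAGT, a strong form of the site that Pu.1 binds, occurred in 1 of 58, Dnajc6, against 3.69% of all. A match describes letters only, and no match says only that the letters are not in this window.

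The matched stretches are shown for the genes with an element before a start site, written 5′ to 3′ on the strand of the gene with the element in capitals. The Hspd1 and Hspe1 lines are the same bases read on opposite strands (chr1:55088054-55088081), because the 2 genes lie head to head. They hold 2 overlapping matches in capitals, in an intron and a non-coding exon of Hspd1 transcripts. The element of Dnajb6 lies at chr5:29735847-29735869 on the plus strand, in a non-coding exon or UTR of Dnajb6 and a coding exon of Gm5129. That of Hspa5 lies at chr2:34772020-34772048 on the plus strand, in a non-coding exon or UTR of Hspa5. The other 3 lie outside annotated genes. They are at chr14:118937822-118937850 on the plus strand for Dnajc3, and at chr10:86705633-86705661 and chr10:86705528-86705556 on the minus strand for Hsp90b1.
Hspe1: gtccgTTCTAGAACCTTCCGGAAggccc
Hspd1: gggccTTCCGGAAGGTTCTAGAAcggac
Dnajb6: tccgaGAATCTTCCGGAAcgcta
Hspa5: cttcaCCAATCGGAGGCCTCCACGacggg
Hsp90b1, distal: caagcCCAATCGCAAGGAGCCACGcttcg
Hsp90b1, proximal: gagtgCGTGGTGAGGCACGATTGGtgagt
Dnajc3: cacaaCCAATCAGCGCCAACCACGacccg

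The 3 genes with the ER stress element had 703, 451 and 48.9 FPKM, and the 4 with the heat shock element 98.3, 71.8, 49.6 and 15.5. Hspa1a and Hspa1b had promoters in the table in which neither element was spelled this way. Hspa8, Hsp90aa1, Hsp90ab1 and Hspa9 were among the 14 genes with no promoter in the table.

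Since the deletion targets Mir137, the 3′ UTRs of the genes were searched for its seed match. The mature strand, from RefSeq with GRCm38.p6 coordinates chr3:118433901-118433923 on the plus strand, is shown with its seed, bases 2 to 8, in capitals. A UTR site was called where the 7 letters AGCAATA, which pair with the seed, occurred in the 3′ UTR of the GENCODE M21 transcript with the longest coding sequence.
mmu-miR-137-3p: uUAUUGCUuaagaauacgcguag

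A site was present in 8 of 70 genes with a 3′ UTR (11.4%), against 8.70% of 20636 genes, while the median UTR length was 1122 bases for the former and 797 for the latter. The 8 were Dnajb6, Hspa9, Dnajc5, Dnajb1, Dnajc15, Dnajc1, Dnajb5 and Hspa12a, in order of level from 98.3 to 1.29 FPKM. Dnajc15 had 3 sites and the only one followed by an A, the strongest type. The UTRs searched may differ from those of the transcripts measured. That of Dnajc15 had 5716 bases, against an effective length of 367 nt for the gene. The site of Dnajc5 lies at base 5389 of its UTR, against an effective length of 4064 nt. Such sites may therefore lie outside the transcripts measured. Sites of Dnajb6, Dnajc5 and Dnajb1 and the site of Dnajc15 followed by an A are shown with the seed match in capitals. No library of mice with intact Mir137 was analysed here, and no value here gives the level of mature miR-137, so whether these transcripts respond to it was not tested.
Dnajb6: ggttttgcttAGCAATAccatttct
Dnajc5: ccctgtttacAGCAATAccagcctg
Dnajb1: cagcatcacaAGCAATAcctggttg
Dnajc15: ttaagtgtgcAGCAATAaaagcctg

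Among the 7 highest genes the highest library exceeded the lowest by between 1.02 times (Hsp90aa1) and 1.09 times (Hspa1b) in TMM-normalised CPM, while some low genes ranged wider. Each gene's 3 counts were compared by a chi-square test of homogeneity given library size, with Benjamini-Hochberg adjustment over 13246 genes that passed a filter on low counts. That filter kept 63 of the 72. The null of this test is counting error alone, so ordinary spread between replicates is enough for a call, and a small p does not set a gene apart from other genes. The test called 32 of 63 (50.8%) at an adjusted p of 0.05, against 41.4% of all genes tested, so the share lies near the background. Without replicate 1, 2 or 3 it called 19, 15 or 21 of 63, against 28.2, 18.6 and 23.5% of all genes. Fewer libraries enter these tests, and the share of all genes called also differed with the library left out. Dnajb14 alone was called in the full set and without each library in turn. The biological coefficient of variation estimated by edgeR, which is the spread between libraries beyond counting error, had a median of 0.0726 over the 63 and of 0.0866 over all genes tested. It was higher for genes of low count, at 0.246 for Hspb11 against 0.0486 for Hspa8, and these medians were not matched for level. Of the 61 detected genes 34.4, 36.1 and 29.5% were highest in replicates 1, 2 and 3, near the 29.8, 36.0 and 34.2% of all genes detected and tested.

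Dnajb14, which encodes an ER membrane J-protein involved in membrane protein degradation (chromosome 3, 137867675 to 137916557), was at 22.2, 13.2 and 17.5 TMM-normalised CPM in replicates 1, 2 and 3. It was high in replicate 1 and low in replicate 2, by 1.68 times (adjusted p = 1.9e-07, chi-square with Benjamini-Hochberg adjustment). Differences of a few percent also passed the test where counts were large. Hspa8, at 2776, 2886 and 2783 normalised CPM, was highest in replicate 2 by 1.04 times (adjusted p = 1.5e-08 by the same chi-square test). Without replicate 2 the adjusted p for Hspa8 was 0.82.

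Hspa1b was at 810.4, 743 and 796 normalised CPM, lowest in replicate 2 (chi-square, adjusted p = 3.7e-10, and 0.31 without replicate 2). Hspa1a was not called (adjusted p = 0.12). For the sum of the pair, to which the split of reads between the 2 does not matter, the chi-square test gave an adjusted p of 1.7e-08. Hsph1 was lowest in replicate 2 as well, at 54.4, 43.7 and 51.1 normalised CPM (adjusted p = 0.00042, and 0.38 without replicate 2). Hsp90ab1 went the other way and was highest in replicate 2, at 888, 930.5 and 884 (adjusted p = 9.4e-05, and 0.86 without replicate 2). The heat-inducible genes had their lowest values in different libraries, since Dnajb1 was lowest in replicate 1, at 135, 153 and 153 normalised CPM (adjusted p = 5.2e-05, and 0.96 without replicate 1).

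Dnajc10 was highest in replicate 3, at 138, 137.15 and 160.0 normalised CPM (chi-square, adjusted p = 1.2e-07, and 0.94 without replicate 3). Hspa5, at 1597, 1621 and 1650.2, differed by 1.03 times between replicates 3 and 1 (chi-square, adjusted p = 0.0034, and 0.15 and 0.21 without replicates 1 and 3). Among low genes Hspa1l had 4.60, 1.66 and 3.30 normalised CPM, from 79.22, 26.05 and 54.12 estimated counts, a 2.77-fold range with low counts in replicate 2. This range depends in part on how reads shared with Hspa1a and Hspa1b were split. Hspb11, Dnajc4 and Dnajc17, with means of 1.83, 4.17 and 4.12 normalised CPM, ranged 2.47-, 1.92- and 1.87-fold and were also called. Dnajc9 had 10.5, 13.5 and 8.68 normalised CPM, a 1.56-fold range. Hsp90b1, Hsp90aa1, Hspb1, Hspe1, Hspd1, Hspa9, Dnaja1, Dnaja2, Dnajc8 and Dnajc19 were tested and not called on all 3 libraries. By the same chi-square test Hsp90b1 was called without replicate 1 (adjusted p = 0.039) and Dnajc19 without replicate 2 (adjusted p = 0.040). The adjusted p of Hspd1 was 0.96 at a coefficient of variation of 0.59% of its normalised CPM, and that of Dnajc19 was 0.055 at 12.7%.

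**Figure D4:**
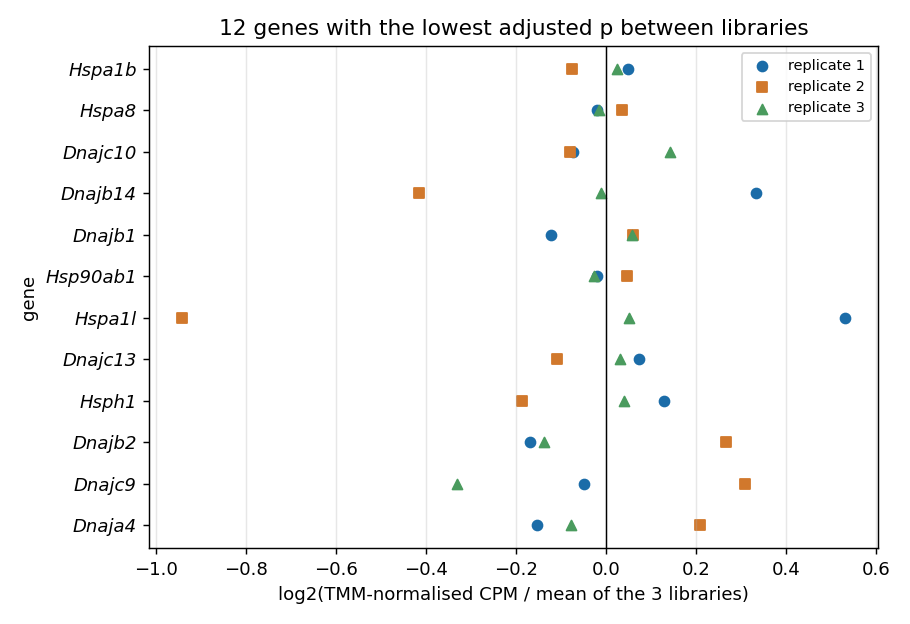
Deviation of each library from the mean of 3 libraries, as log2 of TMM-normalised CPM over that mean, for the 12 genes with the lowest adjusted p in the chi-square test between libraries. Points of Hspa8 and Hsp90ab1 lie near 0, whereas Hspa1l and Dnajb14 spread widely, with replicate 2 lowest. Values of Hspa1l depend in part on the split of reads shared with Hspa1a and Hspa1b.

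Several genes share sequence with pseudogenes or neighbours, so some reads may have been placed in the wrong gene, in either direction. In GENCODE M21 transcripts, 28 of 72 genes shared at least 1 identical stretch of 100 bases with another gene on either strand, and 18 shared over 10% of theirs. Hspa8 shared 63.4%, and 58.5% of all its stretches with Gm15459. Hspb1 shared 56.3% with Hsp25-ps1, and Hsp90aa1 47.5%, mostly with Gm12346. Gm15459, Hsp25-ps1 and Gm12346 were not among the genes tabulated, and the estimated counts of Hspa8, Hspb1 and Hsp90aa1 were whole. Whether reads of those pseudogenes were counted in Hspa8, Hspb1 or Hsp90aa1 was not tested. The remaining 44 genes, Hspa4 among them, shared none. Exons of 25 genes overlapped a gene on the opposite strand.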

How the data were processed

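The authors deposited 2 tables with 1 column per library, estimated counts per gene, not normalised between libraries, and FPKM per gene, which divides by effective length and library size. The submitters' processing notes name STAR (2.7.9a), RSEM and DESeq2 as tools and GRCm38 and mm10 as builds; settings, annotation and strandedness are not given in the sources used here. There were 0 columns of other samples.

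Estimated counts were rounded and filtered with edgeR 4.0.16 in R 4.3.3, which kept 13246 genes, and normalised by TMM. The chi-square test between libraries was tested on simulated data: it found changed genes, kept false calls low under counting error alone, and called many unchanged genes once replicates varied beyond it. With 1 group, no conditions were compared. Of the names in either table, 12 were not found in the other, where gene names had become dates; none was a heat shock or DnaJ gene. The level of a list is the median of log2(FPKM + 1) over its genes. The effective length is the count divided by FPKM and library total. Coordinates (1-based) and transcripts come from GENCODE M21 (GRCm38), in which all 72 symbols matched. The 7 pathway lists, the 8 marker lists and the members were chosen with earlier results of these data known. Named genes were the 25 highest, the highest and lowest of each of 8 families, the 5 most dispersed with a mean of at least 10 CPM, and 14 named always; other members named were chosen after their values were seen. Alternatives were another detection threshold, unit, pseudocount, normalisation (DESeq2 1.42.0) and filter, and leaving out each library. Depth limits only low genes: 3 counts correspond to 0.175 to 0.191 CPM.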

Additional observations from a re-analysis of the deposited data

How the results depend on the processing

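The count of detected genes was 61 and ranged from 53 at an FPKM of 5 to 64 at 0.5, with 61 by CPM and 61 to 63 without each replicate. The count of genes called by the chi-square test was 32, or 33 with DESeq2 size factors (the same 32 and Dnajc3), 31 without the filter (Hspa12b lost) and 32 with Hspa1a and Hspa1b summed, and 15 to 21 without each replicate, where fewer libraries enter the test. The share of counts was 1.22% and as a share of FPKM 1.03%, and 1.22 to 1.23% without each replicate. The median level of the 72 genes, 4.17, was 4.09 with a pseudocount of 0.1, 4.40 over the genes that passed the filter on low counts, 5.04 in TMM-normalised CPM and 4.14 to 4.19 without each replicate. Of 96 alternatives for family levels and ratios, 77 moved by less than the spread between libraries, 17 by more, and 2 changed the order. Of the 77, 66 left out 1 library. With 3 libraries such a shift is always below their spread, so these 66 could not come out otherwise and say nothing on stability. In counts the ratio of Hspd1 to Hspe1 was 2.92 in place of 0.693 and that of mitochondrial J-proteins to Hspa9 0.664 in place of 1.59. No paired analysis was possible because there is only 1 group. Depth limits the genes near 3 counts and strand the overlapping genes.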
